A study of Mus musculus with 64 samples.

Results

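The genes described here are 38 members of pattern recognition and NF-kB signalling, measured in whole mouse colon. They were chosen by name from the 35534 genes of the deposited tables and comprise 10 receptors, 10 adaptors and kinases, 3 genes of the IKK complex, 5 NF-kB subunits, 8 inhibitors and atypical IkB proteins, and 2 peptidoglycan recognition proteins. All 38 were found in both tables and all 38 passed the filter on low values, which 16938 genes passed in specific pathogen free (SPF) colon and 16951 in germ-free (GF) colon. Mice were wild-type Swiss Webster, an outbred stock, aged 8 to 12 weeks and kept on 12 h of light and 12 h of dark. SPF mice carry a gut microbiota and GF mice carry none; the GF mice were taken out of their isolators into ISOcages for the treatment. In each housing, one arm received vancomycin, an antibiotic that blocks cell wall synthesis of Gram-positive bacteria, as 2.5 mg in 100 µl of phosphate-buffered saline (PBS) by intraperitoneal injection, 2 times a day for 3 days and once on day 4. The other arm received PBS on the same schedule. Tissue was collected at ZT5, ZT11, ZT17 or ZT23 (zeitgeber time, counted in hours from lights on), giving 16 groups of 4 libraries, 64 in all. The title of the study asks which immune effects of antibiotics occur without microbes, and the GF arms address that question. Whether the libraries of a group are separate animals is not stated in the labels, and p-values then measure only the spread between libraries.

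Toll-like receptors (TLRs) sense microbial products at the cell surface or in endosomes, and NOD1 and NOD2 sense fragments of bacterial peptidoglycan in the cytosol. Most TLRs signal through MyD88, IRAK kinases and TRAF6, and NOD receptors through RIPK2, to TAK1 and the IKK complex, which marks IkB proteins for destruction and so frees NF-kB dimers to enter the nucleus. NF-kB then induces several of its own inhibitors, among them Nfkbia and Tnfaip3. In the colon, epithelium, macrophages, dendritic cells and B cells of lymphoid follicles all express parts of this pathway.

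The promoters of 4 members are shown, chosen after their matches were seen: Pglyrp1 was called between treatments and Tlr2 for time of day, while Nfkbia and Nfkb2, which were not called, are textbook NF-kB target genes. Of the other called members, Irak1 had a match in both its promoters and Tlr1 (2 promoters) and Ikbkg (4 promoters) had none. Each runs 5′ to 3′ over 250 bases before and 50 after an annotated start (RefSeq, build GRCm38.p6), and capitals mark matches to the kappa-B consensus, the site that NF-kB dimers bind, on either strand, with overlapping matches joined.
Pglyrp1 chr7:18884440-18884739 (plus strand): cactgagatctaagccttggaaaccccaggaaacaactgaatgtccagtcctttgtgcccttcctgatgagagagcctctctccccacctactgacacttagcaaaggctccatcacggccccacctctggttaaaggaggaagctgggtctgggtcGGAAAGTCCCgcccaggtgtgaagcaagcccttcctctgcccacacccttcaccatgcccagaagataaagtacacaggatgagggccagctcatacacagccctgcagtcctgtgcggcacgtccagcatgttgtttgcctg
Nfkbia chr12:55492598-55492897 (minus strand): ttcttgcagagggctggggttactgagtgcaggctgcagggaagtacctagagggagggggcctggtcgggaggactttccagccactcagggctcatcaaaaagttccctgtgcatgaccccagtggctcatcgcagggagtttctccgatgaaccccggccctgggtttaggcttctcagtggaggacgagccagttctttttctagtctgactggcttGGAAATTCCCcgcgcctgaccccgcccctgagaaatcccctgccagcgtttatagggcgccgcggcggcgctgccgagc
Nfkb2 chr19:46304487-46304786 (plus strand): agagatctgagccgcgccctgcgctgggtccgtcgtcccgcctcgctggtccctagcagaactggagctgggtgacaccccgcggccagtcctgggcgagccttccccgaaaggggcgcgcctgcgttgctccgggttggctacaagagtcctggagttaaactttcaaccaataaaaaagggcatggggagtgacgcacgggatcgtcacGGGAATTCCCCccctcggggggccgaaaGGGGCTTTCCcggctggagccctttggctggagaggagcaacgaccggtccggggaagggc
Tlr2 chr3:83841559-83841858 (minus strand): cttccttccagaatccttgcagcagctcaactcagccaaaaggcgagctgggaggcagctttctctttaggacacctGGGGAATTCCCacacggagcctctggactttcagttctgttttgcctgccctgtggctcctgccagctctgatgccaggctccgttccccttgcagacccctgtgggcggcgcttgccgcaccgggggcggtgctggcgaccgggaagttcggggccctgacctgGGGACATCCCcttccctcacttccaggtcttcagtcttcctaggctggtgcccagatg
The table of promoters held 29 of the 38 members, with 41 promoters, of which 14 (34.1%) contained a match, against 2779 of 32851 promoters of all genes (8.46%). Promoters of 1 gene can overlap, and a match is a description of the sequence and not a bound site. Pglyrp1 had a single match, starting at base -93 from its start, and Nfkbia had a single match at base -29.

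Levels are given as CPM, counts scaled to a common library total with the TMM factor, and fold changes as log2 of vancomycin over PBS with a standard error (SE). A gene is called at an adjusted p under 0.05 over all genes tested in edgeR. Library totals ran between 10044032 and 13615804 estimated counts in SPF and between 10513966 and 15736087 in GF colon. Bulk RNA cannot tell a smaller number of cells of a type apart from less RNA per cell. Summed markers of other cell types varied widely between libraries. In SPF colon, 12 B cell markers summed to 22.6, 493 and 759 CPM (lowest, median and highest of 16 libraries) after vancomycin and to 41.5, 203 and 820 CPM after PBS. The 15 T cell markers summed to 20.3, 180 and 713 CPM after vancomycin and to 17.4, 60.4 and 458 CPM after PBS, and 16 macrophage and dendritic cell markers to 211, 553 and 813 CPM after vancomycin and to 213, 310 and 882 CPM after PBS. In GF colon the B cell sum was 5.26, 48.7 and 875 CPM after vancomycin and 5.65, 303 and 1884 CPM after PBS. Of 11 neutrophil markers, Ngp was at 0 in all 64 libraries. In SPF colon the 11 summed to 21.2, 62.7 and 125 CPM after vancomycin and to 24.2, 46.0 and 74.2 CPM after PBS. No neutrophil score was used as a covariate, so the part of neutrophils in the members' values was not tested. Y-linked genes were low in 9 of 16 GF vancomycin libraries, in 2 of 16 GF PBS libraries and in no SPF library. The low libraries were thus unevenly split between the GF treatments. Their part in the GF values was not tested beyond the fits with a Y-linked score or without these libraries. Tlr7, Irak1 and Ikbkg are X-linked.

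In SPF colon over all times, Pglyrp1 was the 1 member of 38 called between vancomycin and PBS, against 0.809% of all genes tested, and it was higher after vancomycin. An unadjusted p under 0.05 was reached by 16 of the 38, against 16.2% of all genes: 14 with a higher level after vancomycin (7.57% of all genes) and 2 with a lower one, Irak2 and Tab1 (8.58% of all genes). The log2 fold change was above 0 in 31 of 38 members, against 48.8% of all genes, and its median was 0.14, against -0.00 over all genes. DESeq2 called 5 members, against 3.03% of the genes it gave an adjusted p, namely Pglyrp1, Sigirr, Relb, Nfkbia and Tlr7. The shift was spread over several roles: 5 of 5 NF-kB subunits, 3 of 3 IKK genes, 9 of 10 receptors, 6 of 8 inhibitors, 6 of 10 adaptors and kinases and 2 of 2 peptidoglycan recognition proteins had a positive fold change. Markers of immune cells moved in the same direction, with all 15 T cell, all 12 B cell and all 16 macrophage and dendritic cell markers higher after vancomycin and 1, 0 and 0 of them called. With the T cell score as a covariate the members' median was 0.06 and 27 were positive. It was 0.09 and 28 were positive with the macrophage score, and 0.13 and 30 were positive with the B cell score. Pglyrp1 stayed called with each of these scores.

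**Figure D1:**
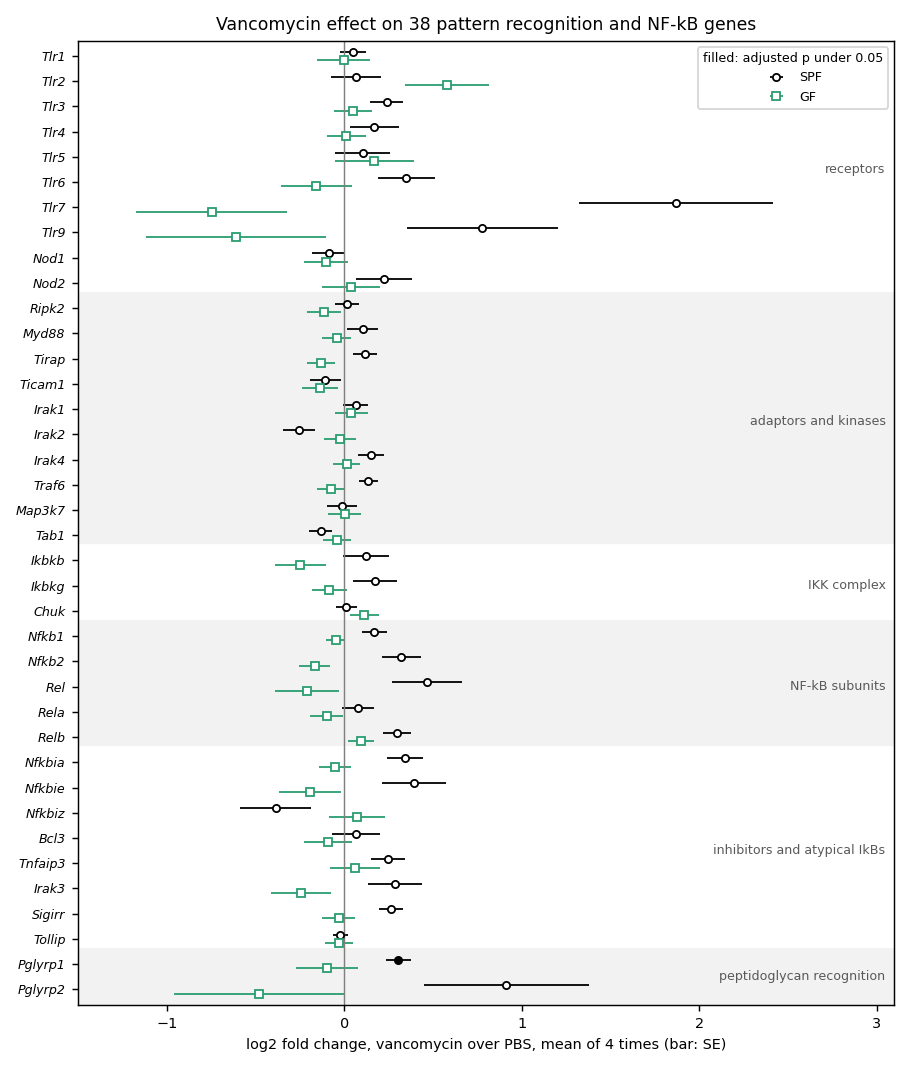
Log2 fold change of vancomycin over PBS (x axis, mean of the 4 times, bars show the SE) for the 38 members (y axis, grouped by role) in SPF (circles) and GF (squares) colon, 16 libraries per arm. Filled symbols mark an adjusted p under 0.05, which only Pglyrp1 in SPF colon reached; 31 of 38 SPF values and 12 of 38 GF values lie above 0.

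Pglyrp1, a secreted protein that binds and kills bacteria through their peptidoglycan, ranged over 146, 176 and 230 CPM (lowest, median and highest) in SPF vancomycin libraries and over 117, 143 and 184 CPM in SPF PBS libraries. Each of the 16 vancomycin libraries lay above the median of the PBS libraries, although the ranges overlapped, and the mean was higher at 4 of 4 times. The rise of Pglyrp1 was 0.31 ± 0.07 on the log2 scale (SE, edgeR adjusted p = 0.0339). The call was lost in 11 of 32 fits that left out 1 library each, with an adjusted p of at most 0.0629 and a fold change of 0.27 to 0.33. Those libraries were vancomycin ZT5 replicate 2, ZT11 replicate 4, ZT17 replicates 2 and 3 and ZT23 replicate 2, and PBS ZT5 replicate 2, ZT11 replicates 3 and 4, ZT17 replicates 3 and 4 and ZT23 replicate 3. Pglyrp2, an amidase that cuts peptidoglycan, had low levels of 0.252, 4.47 and 12.5 CPM after vancomycin and 0.253, 1.68 and 7.87 CPM after PBS, and its difference of 0.91 ± 0.46 was not called (adjusted p = 0.332).

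Among the receptors, Tlr7, an endosomal sensor of single-stranded RNA, had the smallest p. It measured 0.50, 1.91 and 32.5 CPM in SPF vancomycin libraries and 0.231, 0.922 and 9.76 CPM in SPF PBS libraries. The arms overlapped, and 14 of 16 vancomycin libraries lay above the PBS median. The fold change was 1.87 ± 0.55 on the log2 scale (adjusted p = 0.0941), but 1 library, vancomycin ZT11 replicate 2, held the value of 32.5 CPM, and without it the fold change was 1.10. Tlr3, an endosomal sensor of double-stranded RNA, had medians of 27 CPM after vancomycin and 22.4 CPM after PBS (0.24 ± 0.09, adjusted p = 0.212). Tlr6, the partner of Tlr2 for diacylated lipopeptides, lay above the PBS median in 15 of 16 vancomycin libraries (0.35 ± 0.16, adjusted p = 0.282). Tlr1 and Tlr6 are close copies. The values were taken to be counts estimated with Salmon, so the split of reads shared by these copies is uncertain. For the lipopeptide receptor Tlr2 the difference was 0.07 ± 0.14, for the lipopolysaccharide receptor Tlr4 0.17 ± 0.14 and for the flagellin receptor Tlr5 0.10 ± 0.16. Tlr9, a sensor of unmethylated CpG DNA, had medians of 5.23 CPM after vancomycin and 1.88 CPM after PBS (0.78 ± 0.42, adjusted p = 0.371). Nod1 and Nod2 differed by -0.09 ± 0.09 and 0.22 ± 0.16, neither called, and Tlr1 by 0.05 ± 0.07.

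Downstream of the receptors, Irak2, a kinase-like protein of the MyD88 complex, had 33.4, 40.8 and 62.3 CPM in SPF vancomycin libraries and 38.6, 50.1 and 69.5 CPM in SPF PBS libraries. Only 2 of 16 vancomycin libraries lay above the PBS median, and the mean was higher after vancomycin at 0 of 4 times. The difference of -0.25 ± 0.09 was not called (adjusted p = 0.17). Tab1, a partner of the kinase TAK1, had a difference of -0.13 ± 0.06, and Traf6, the ubiquitin ligase that activates TAK1, one of 0.14 ± 0.06, with adjusted p of 0.307 and 0.223. Irak4, the first kinase recruited by MyD88, differed by 0.15 ± 0.07. The other adaptors and kinases (Myd88, Tirap, Ticam1, Ripk2, Irak1 and Map3k7, which encodes TAK1) had fold changes between -0.11 and 0.12 and none reached an unadjusted p under 0.05. In the IKK complex, the scaffold subunit Ikbkg (NEMO) ranged over 32.5, 44.9 and 144 CPM after vancomycin and 29.3, 46.2 and 68.4 CPM after PBS. The medians lay in the opposite order to the fitted fold change. The difference of 0.17 ± 0.13 (adjusted p = 0.529) was 0.05 without vancomycin ZT17 replicate 4, the library at 144 CPM. Ikbkg lies head to head with another gene, and the use of strand in counting is not stated. The catalytic kinase genes Ikbkb and Chuk differed by 0.12 ± 0.13 and 0.01 ± 0.06.

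All 5 NF-kB subunits had a positive fold change and 4 of them an unadjusted p under 0.05. Relb, the transactivating subunit of the non-canonical pathway, had 69.5, 90.0 and 115 CPM in SPF vancomycin libraries and 53.1, 73.2 and 89.5 CPM in SPF PBS libraries. The upper part of the vancomycin range lay above every PBS library, and the mean was higher at 4 of 4 times (0.30 ± 0.08, adjusted p = 0.0611). Nfkb2, the precursor of p52 and partner of RelB, had medians of 75.9 CPM after vancomycin and 57.6 CPM after PBS, with 14 of 16 vancomycin libraries above the PBS median (0.32 ± 0.11, adjusted p = 0.142). Rel, the subunit c-Rel used mainly in lymphocytes and myeloid cells, differed by 0.47 ± 0.20 and Nfkb1, the precursor of p50, by 0.17 ± 0.07 (adjusted p = 0.240 and 0.238). Rela, the p65 subunit of the canonical pathway, differed by 0.08 ± 0.09.

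Among the inhibitors, Sigirr had the smallest p, and its adjusted p was the next after that of Pglyrp1, followed by Relb, Tlr7 and Nfkbia. Sigirr, a receptor-like protein that dampens interleukin-1 and TLR signalling in epithelium, had 28.9, 38.7 and 48.3 CPM in SPF vancomycin libraries and 24, 33.3 and 42.1 CPM in SPF PBS libraries. The arms overlapped, 13 of 16 vancomycin libraries lay above the PBS median and the mean was higher at 4 of 4 times (0.27 ± 0.07, adjusted p = 0.0555). Nfkbia, which encodes the inhibitor IkB-alpha, had 75.3, 106 and 145 CPM after vancomycin and 61.2, 92.3 and 111 CPM after PBS. It lay above the PBS median in 14 of 16 vancomycin libraries (0.34 ± 0.10, adjusted p = 0.0988). Tnfaip3 (A20), a ubiquitin-editing enzyme that ends NF-kB signalling, differed by 0.24 ± 0.10 and Nfkbie (IkB-epsilon) by 0.39 ± 0.18, with adjusted p of 0.212 and 0.283. Irak3, an inhibitory IRAK of macrophages, differed by 0.29 ± 0.15, Bcl3, an atypical IkB protein that binds p50 and p52, by 0.07 ± 0.13 and Tollip, an adaptor that restrains IRAK1, by -0.02 ± 0.04. Nfkbiz (IkB-zeta), an atypical IkB protein that acts in the nucleus, was the member with the most negative value, -0.39 ± 0.20 (adjusted p = 0.342). Leaving out vancomycin ZT11 replicate 3 raised the number of members called to 7, while the share of all genes called in that fit was 3.06%, with Irak2 (lower), Nfkb2, Nfkbia, Relb, Sigirr and Tlr7 added to Pglyrp1. Sigirr was also called without PBS ZT11 replicate 2, PBS ZT23 replicate 4 or vancomycin ZT23 replicate 4, and Relb without vancomycin ZT5 replicate 3.

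**Figure D2:**
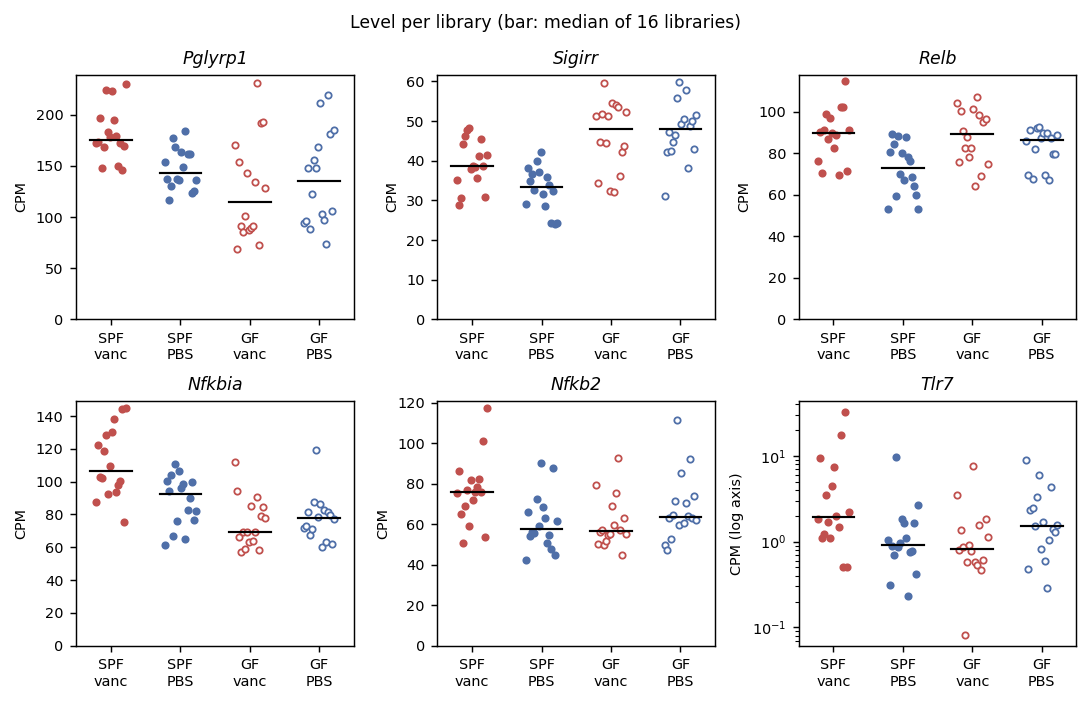
Level in CPM (y axis; log axis for Tlr7 only) of 6 members in each of the 64 libraries, by arm (x axis), with points for libraries and bars for the median of 16. Pglyrp1 medians are 176 and 143 CPM in the SPF arms and 115 and 135 CPM in the GF arms (vancomycin, then PBS), and the arms overlap for every gene shown.

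In GF colon over all times, 0 of 38 members were called, as were 0% of all genes in edgeR, and DESeq2 called 0 members (0.0295% of all genes). An unadjusted p under 0.05 was reached by 1 member, Tlr2 (3.96% of all genes), and the fold change was above 0 in 12 of 38 members, against 52.2% of all genes. The median was -0.05, against 0.01 over all genes. Tlr2 had 10.7, 14.7 and 71.2 CPM in GF vancomycin libraries and 5.49, 12.9 and 23.3 CPM in GF PBS libraries. Its highest values, 71.2 CPM at ZT5 replicate 3 and 42.4 CPM at ZT23 replicate 2, stood far above the rest of the arm. The fold change was 0.58 ± 0.24 (adjusted p = 1.00), it was 0.29 without the library at 71.2 CPM, and it was 0.13 without the 11 libraries low in Y-linked genes. In the libraries at 71.2 and 42.4 CPM, 6 markers of distal colon summed to 21.6 and 63.5 CPM. Over the GF arms that sum was 21.6, 224 and 606 CPM after vancomycin and 62.3, 304 and 441 CPM after PBS (lowest, median and highest). With the distal score as a covariate, 1 member had an unadjusted p under 0.05, with the higher level after vancomycin, and 12 members were positive. The part of colon position was not tested beyond this fit. The members with the smallest p in other roles were lower after vancomycin but not called. Nfkb2 had 44.8, 56.5 and 92.8 CPM after vancomycin and 47.2, 63.5 and 111 CPM after PBS (-0.17 ± 0.09). Ikbkb had 40.6, 61.9 and 107 CPM after vancomycin and 44.8, 80.3 and 128 CPM after PBS (-0.25 ± 0.14). Tirap, the bridge between Tlr2 or Tlr4 and MyD88, had medians of 26.8 CPM after vancomycin and 28.8 CPM after PBS (-0.13 ± 0.08), and Irak3 of 4.25 CPM after vancomycin and 4.84 CPM after PBS (-0.24 ± 0.17). All of these arms overlapped. Pglyrp1 had 69.2, 115 and 231 CPM after vancomycin and 73.2, 135 and 219 CPM after PBS (-0.10 ± 0.17), a spread between libraries wider than in SPF colon, and Pglyrp2 had medians of 0.614 CPM after vancomycin and 1.08 CPM after PBS (-0.48 ± 0.48). Leaving out 1 library moved Pglyrp2 to values between -0.88 (without vancomycin ZT17 replicate 1) and -0.073 (without PBS ZT5 replicate 1), Tirap to -0.052 (without PBS ZT5 replicate 3) and Irak3 to -0.16 (without PBS ZT23 replicate 3). With the B cell or T cell score as a covariate Pglyrp2 was 0.042 or 0.023.

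The difference between the SPF and the GF effect was tested directly in 1 fit of all 64 libraries. No member was called (0 of 38, against 0% of 16604 genes), and 13 of 38 had an unadjusted p under 0.05, all with the higher value in SPF colon, against 9.94% of all genes in either direction and 5.14% with the higher value in SPF. The difference was above 0 in 30 of 38 members (47.4% of all genes), with a median of 0.18, against -0.01 over all genes. By role, the 13 were Tlr7 and Tlr9, Tirap and Traf6, the subunits Nfkb1, Nfkb2 and Rel, the inhibitors Nfkbia, Nfkbie, Irak3 and Sigirr, and both peptidoglycan recognition proteins. Tlr7 had an SPF effect of 1.87 and a GF effect of -0.75 on the log2 scale (difference 2.62 ± 0.70, adjusted p = 0.229). For Nfkb2 the SPF effect was 0.32 and the GF effect -0.17 (difference 0.49 ± 0.14, adjusted p = 0.241), and for Nfkbia 0.34 and -0.05 (0.39 ± 0.14, adjusted p = 0.408). Pglyrp1, the member called in SPF colon, had a difference of 0.40 ± 0.19 that was not called (adjusted p = 0.482), Tirap one of 0.24 ± 0.10 (adjusted p = 0.440) and Ikbkb one of 0.37 ± 0.20 (adjusted p = 0.536). The test thus does not show that the Pglyrp1 effect differs between housings. The number at an unadjusted p under 0.05 was 5 with the T cell score as a covariate and 7 with the B cell, the macrophage or the Y-linked score.

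At single times in SPF colon, each with 4 libraries per treatment, no member was called at ZT5 (0.0827% of all genes), ZT11 (0%), ZT17 (0.319%) or ZT23 (0%). An unadjusted p under 0.05 was reached by 7 members at ZT5 (14.2% of all genes), 10 at ZT11 (9.86%), 6 at ZT17 (8.65%) and 4 at ZT23 (7.34%), and the median fold change of the members was 0.19, 0.22, 0.17 and 0.03 at these times. At ZT5, Tlr1, the partner of Tlr2 for triacylated lipopeptides, had 67.5, 74.8, 90.0 and 91.1 CPM after vancomycin and 47.0, 53.2, 62.2 and 76.9 CPM after PBS (0.43 ± 0.15, adjusted p = 0.187). Irak1, a kinase of the MyD88 complex, had 70.4, 81.9, 87.4 and 88.5 CPM after vancomycin and 52.5, 65.8, 67.4 and 71.6 CPM after PBS (0.35 ± 0.14, adjusted p = 0.264). Nfkb1 had 89.3, 102, 102 and 104 CPM after vancomycin and 69.8, 73.1, 84.8 and 90.4 CPM after PBS (0.32 ± 0.14). For Irak1 and Nfkb1, 3 of the 4 vancomycin libraries lay above every PBS library, and for Tlr1 2 of 4. Nfkbia had 93.9, 97.8, 130.4 and 138 CPM after vancomycin and 65.2, 83.0, 96.1 and 98.7 CPM after PBS (0.43 ± 0.20, adjusted p = 0.346). Nfkbia lay above every PBS library in 2 of 4. Ikbkg had 41.9, 42.8, 53.1 and 60.4 CPM after vancomycin and 30.6, 36.6, 37.6 and 48.8 CPM after PBS (0.37 ± 0.25). Pglyrp2 had 2.42, 5.52, 5.67 and 7.31 CPM after vancomycin and 0.617, 1.56, 1.79 and 4.39 CPM after PBS (1.33 ± 0.93). Both overlapped between treatments. Marker sums were also higher after vancomycin at ZT5, with medians of 665 CPM after vancomycin and 202 CPM after PBS for B cells, of 272 CPM after vancomycin and 67.7 CPM after PBS for T cells, and of 597 CPM after vancomycin and 350.4 CPM after PBS for macrophages and dendritic cells. The ranges of these sums overlapped between treatments. The 10 smooth muscle markers summed to 9106, 9453 and 10051 CPM (lowest, median and highest) after vancomycin and to 13260, 14579 and 16049 CPM after PBS, without overlap. The part of the smooth muscle markers was not tested. The Pglyrp2 value was -0.16, -0.25 and -0.10 with the B cell, T cell and macrophage score as a covariate.

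At ZT11, Sigirr and Relb had the smallest p of the 38 members, and DESeq2 called both (0.654% of all genes). Sigirr had 30.9, 38.6, 41.3 and 45.5 CPM after vancomycin and 24, 24.2, 24.4 and 32.4 CPM after PBS. The lowest vancomycin library lay below the highest PBS library and all others lay apart (0.57 ± 0.14, adjusted p = 0.125). Relb had 71.4, 91.2, 102 and 115 CPM after vancomycin and 53.1, 60.0, 64.4 and 68.8 CPM after PBS, without overlap (0.62 ± 0.15, adjusted p = 0.148). Ripk2, the kinase of NOD receptors, had 12.9, 13.6, 15.5 and 16.6 CPM after vancomycin and 16.4, 18, 18.2 and 20.7 CPM after PBS (-0.32 ± 0.14, adjusted p = 0.439). Without vancomycin ZT11 replicate 3, edgeR called Sigirr, Relb and Tnfaip3 at this time (0.644% of all genes). Tlr7 at ZT11 rested on 1 library: 0.50, 0.503, 2.21 and 32.5 CPM after vancomycin and 0.422, 0.774, 1.67 and 2.70 CPM after PBS gave 2.67 ± 1.09, and the value was -0.41 without vancomycin replicate 2. Pglyrp1 had 146, 169, 173 and 230 CPM after vancomycin and 123, 126, 136 and 161 CPM after PBS (0.39 ± 0.14, adjusted p = 0.331). Ikbkb, the main canonical kinase, had 50.1, 65.9, 69.8 and 108 CPM after vancomycin and 46.8, 52.3, 63 and 67.9 CPM after PBS, with overlap (0.35 ± 0.26). The value of Ikbkb was 0.095 without vancomycin ZT11 replicate 2, and that of Pglyrp1 was 0.25 without replicate 4.

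In the dark phase, at ZT17, Nfkbiz had 24.4, 42.8, 51.5 and 60.6 CPM after vancomycin and 46.1, 68.4, 108 and 153 CPM after PBS. The ranges met between 46.1 and 60.6 CPM and the difference of -1.06 ± 0.40 was not called (adjusted p = 0.412). Pglyrp1 had 148, 172, 173 and 197 CPM after vancomycin and 117, 130, 137 and 153 CPM after PBS (0.36 ± 0.14, adjusted p = 0.415). Irak4 had 29.5, 30.3, 34.2 and 37.2 CPM after vancomycin and 21, 24.4, 25.8 and 29.4 CPM after PBS, without overlap (0.38 ± 0.15, adjusted p = 0.417). For Ikbkg, the values of 49.2, 53.6, 65.1 and 144 CPM after vancomycin and 41.0, 46.8, 47.4 and 68.4 CPM after PBS gave 0.61 ± 0.25, which was 0.14 without the library at 144 CPM. Tlr7 at ZT17 also held 1 high library, with 1.09, 1.21, 1.84 and 9.38 CPM after vancomycin and 0.308, 0.702, 0.879 and 1.05 CPM after PBS (2.20 ± 1.14, or 0.91 without vancomycin replicate 2). Nfkb2 had 50.7, 65.1, 75.3 and 86.4 CPM after vancomycin and 42.1, 54.1, 56.2 and 66.2 CPM after PBS, with overlap (0.34 ± 0.22, or 0.22 without vancomycin replicate 2).

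At ZT23, Nod1 had 13, 17.7, 18 and 21.3 CPM after vancomycin and 21.9, 23.7, 27 and 27.9 CPM after PBS. No vancomycin library reached the lowest PBS library, yet the difference of -0.52 ± 0.19 was not called (adjusted p = 0.476). Relb had 86.9, 89.7, 96.9 and 99.2 CPM after vancomycin and 59.6, 70.0, 80.4 and 88.6 CPM after PBS (0.32 ± 0.15), and Irak2 had 38.7, 39.3, 42.8 and 44.9 CPM after vancomycin and 47.1, 49.0, 52.4 and 65.8 CPM after PBS (-0.37 ± 0.18), the second without overlap. Pglyrp1 had 169, 178, 183 and 224 CPM after vancomycin and 137, 137, 169 and 178 CPM after PBS (0.28 ± 0.14). Sigirr had 37.8, 46.2, 47.8 and 48.3 CPM after vancomycin and 32.6, 37.1, 39.8 and 42.1 CPM after PBS (0.25 ± 0.13). In both genes the ranges overlapped, as they did for the kinase gene Chuk (-0.11 ± 0.11), with 72.9, 78.3, 84.8 and 88.8 CPM after vancomycin and 72.2, 86.5, 94.8 and 95.9 CPM after PBS. Without 1 library, Pglyrp1 was at least 0.19 (without vancomycin replicate 2) and Chuk lay between -0.17 and -0.054 (without PBS replicate 1 or 4). The test of whether the vancomycin effect differed between times called 0 of 38 members in SPF colon (0.36% of all genes) and 0 of 38 in GF colon (0%). The smallest adjusted p were 0.363 for Nod1 in SPF and 0.597 for Tollip in GF colon, and 8 SPF members (9.79% of all genes) and 6 GF members (8.29%) had an unadjusted p under 0.05.

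In GF colon at single times, 0 of 38 members were called at ZT5, ZT11, ZT17 and ZT23, with 0% of all genes called at each. An unadjusted p under 0.05 was reached by 4 members at ZT5 (3.58% of all genes), 2 at ZT11 (4.91%), 1 at ZT17 (4.47%) and 11 at ZT23 (12.1%). At ZT23, 9 of the 11 had the lower level after vancomycin (6.93% of all genes). Nfkb2 had 49.9, 51.7, 54.8 and 55.0 CPM after vancomycin and 59.7, 64.6, 71.3 and 111 CPM after PBS, without overlap (-0.54 ± 0.18, adjusted p = 0.309). Nfkbie had 7.76, 8.86, 8.89 and 9.82 CPM after vancomycin and 13.6, 14.7, 15.4 and 26.1 CPM after PBS, without overlap either (-0.98 ± 0.35, adjusted p = 0.313). Nfkbiz differed in the opposite direction, with 58.4, 61.1, 65.4 and 96.5 CPM after vancomycin and 29.8, 33.3, 41.8 and 50.9 CPM after PBS (0.85 ± 0.32, adjusted p = 0.318). In the same groups the B cell markers summed to 7.66, 23.2 and 62.2 CPM (lowest, median and highest) after vancomycin and to 310, 529 and 1884 CPM after PBS, and the macrophage markers to 116, 201 and 294 CPM after vancomycin and to 398, 517 and 774 CPM after PBS. Markers of distal colon, 6 in all, summed to 63.5, 95.5 and 565 CPM after vancomycin and to 266, 376 and 396 CPM after PBS. The part of the B cell, macrophage and distal colon markers in the members' values was not tested at single times beyond the fits with a marker score. Tlr7 had 0.0823, 0.585, 0.776 and 0.921 CPM after vancomycin and 0.824, 1.5, 3.33 and 5.92 CPM after PBS (-2.27 ± 0.89), and Pglyrp2 had 0.233, 0.247, 0.614 and 1.32 CPM after vancomycin and 1.19, 1.85, 2.10 and 9.01 CPM after PBS (-2.52 ± 1.00). With the B cell score as a covariate the Pglyrp2 value was 0.08. Map3k7 had 47.1, 56.5, 73.7 and 75.3 CPM after vancomycin and 31.4, 49.3, 54.8 and 58.5 CPM after PBS (0.38 ± 0.19), and Ikbkb had 48.2, 49.2, 82.3 and 107 CPM after vancomycin and 49.1, 95.4, 105 and 128 CPM after PBS (-0.40 ± 0.29), both with overlap. Without PBS ZT23 replicate 3 the value was -0.32 for Nfkb2 and -1.51 for Pglyrp2, and Ikbkb lay between -0.66 and -0.21 without vancomycin replicate 1 or 4. The Y-linked sum at ZT23 had medians of 43.2 CPM after vancomycin and 242 CPM after PBS, with overlap.

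At ZT5 in GF colon, Tlr2 had 10.8, 11.8, 14.4 and 71.2 CPM after vancomycin and 6.74, 8.49, 10.2 and 14.4 CPM after PBS (1.44 ± 0.48), and the value was 0.30 without the library at 71.2 CPM. Tirap had 20.3, 25, 28.7 and 28.7 CPM after vancomycin and 26.2, 30.1, 32.6 and 53.6 CPM after PBS (-0.47 ± 0.16). Ikbkg had 32.6, 33, 46.7 and 50.9 CPM after vancomycin and 42.7, 43.8, 56 and 78.1 CPM after PBS (-0.43 ± 0.20). These groups overlapped, as did those of Relb (0.23 ± 0.14), Nfkbie (0.37 ± 0.35) and Pglyrp2 (0.64 ± 0.96). Relb had 64.4, 98.3, 102 and 107 CPM after vancomycin and 67.1, 69.6, 89.9 and 89.99 CPM after PBS. Nfkbie had 9.26, 10.9, 11.7 and 22.5 CPM after vancomycin and 7.03, 7.13, 9.77 and 18.2 CPM after PBS. Pglyrp2 stayed low, with 0.248, 0.36, 2.24 and 2.57 CPM after vancomycin and 0.148, 0.289, 0.389 and 2.62 CPM after PBS. Single libraries moved these values: without PBS ZT5 replicate 3, Tirap was -0.20 and Ikbkg -0.21. Nfkbie was 0.016 and Pglyrp2 0.15 without vancomycin replicate 4, and they were 0.78 and 2.27 without PBS replicate 1. Relb was 0.14 without vancomycin replicate 3 and 0.35 without replicate 2. With the T cell score as a covariate Pglyrp2 was -0.034. The Y-linked genes summed to 30.004, 42.03 and 154 CPM (lowest, median and highest) after vancomycin at ZT5. After PBS they summed to 182, 210.1 and 240.03 CPM, without overlap. Ikbkg is X-linked, and the part of this split in its value was not tested beyond the fit with the Y-linked score. At ZT11, Nfkb2 had 44.8, 55.1, 57.0 and 62.8 CPM after vancomycin and 62.2, 62.8, 74.0 and 92.0 CPM after PBS (-0.41 ± 0.18). Chuk (IKK-alpha) had 83.3, 98.8, 101 and 112 CPM after vancomycin and 73.1, 74.9, 79.9 and 82.8 CPM after PBS at that time, without overlap (0.35 ± 0.17). Ticam1, the adaptor TRIF of Tlr3 and Tlr4, had 33.7, 35.1, 36 and 46.5 CPM after vancomycin and 42.4, 46.2, 46.2 and 48.3 CPM after PBS (-0.28 ± 0.20). Nfkbie had 7.47, 7.69, 9.52 and 11.3 CPM after vancomycin and 8.19, 11.6, 13.6 and 19 CPM after PBS (-0.54 ± 0.35). The groups overlapped for both, and for Tlr7 and Pglyrp2 at this time. Tlr7 had 0.472, 0.614, 1.13 and 1.84 CPM after vancomycin and 1.3, 1.4, 1.58 and 4.36 CPM after PBS (-1.08 ± 0.85). Pglyrp2 had 0.54, 0.614, 0.916 and 0.922 CPM after vancomycin and 0.409, 0.979, 1.88 and 3.37 CPM after PBS (-1.14 ± 0.97). Without PBS ZT11 replicate 1 the values were -0.31 for Nfkbie, -0.49 for Tlr7 and -0.54 for Pglyrp2. At ZT17, Tollip had 71.1, 76.8, 77.0 and 82.2 CPM after vancomycin and 85, 93.3, 106 and 111 CPM after PBS, also without overlap (-0.36 ± 0.16). Irak1 had 62.7, 67, 70.04 and 98.1 CPM after vancomycin and 53.4, 55.2, 57.8 and 67.9 CPM after PBS (0.35 ± 0.19). Ikbkg had 34.1, 35.4, 36.4 and 54.5 CPM after vancomycin and 44.3, 52.5, 54 and 54.3 CPM after PBS (-0.36 ± 0.20). Both overlapped, as did the other members with the smallest p of their roles. Relb had 75.9, 90.8, 101 and 104 CPM after vancomycin and 67.6, 69.7, 85.8 and 91.1 CPM after PBS (0.24 ± 0.14). Tlr4 had 10.7, 11.8, 15.1 and 18.6 CPM after vancomycin and 15.1, 17.1, 17.3 and 20.1 CPM after PBS (-0.31 ± 0.22). Pglyrp2 had 0.511, 0.548, 0.634 and 5.29 CPM after vancomycin and 0.0807, 0.489, 0.551 and 2.14 CPM after PBS (1.11 ± 0.98), with 1 library in each arm above the rest. Pglyrp2 was -0.51 without vancomycin ZT17 replicate 1 and 2.16 without PBS replicate 3, and it was -0.035 and -0.080 with the B cell and macrophage score. Without vancomycin replicate 4, Irak1 was 0.19, Ikbkg -0.53 and Tlr4 -0.47, and Tlr4 was -0.19 without replicate 2.

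Time of day was tested within each arm. After vancomycin in SPF colon, 3 of 38 members were called, against 8.2% of all genes: Tlr2, Ikbkg and Tlr1. Tlr2 had 9.58, 11.2, 12 and 15.4 CPM at ZT5, 16.3, 20.7, 32.7 and 42.1 CPM at ZT11, 9.45, 13.6, 16 and 17.4 CPM at ZT17, and 10.3, 13.5, 13.6 and 13.9 CPM at ZT23. Its level was highest at ZT11 (adjusted p = 0.0104), and the call was lost without vancomycin ZT11 replicate 1 (adjusted p = 0.108). The 10 smooth muscle markers were also highest at ZT11, with a median sum of 20082 CPM, against 9453 CPM at ZT5, 12042 CPM at ZT17 and 8337 CPM at ZT23, and 6 markers of distal colon were lowest there, with a median sum of 280.3 CPM, against 452 CPM at ZT5, 421 CPM at ZT17 and 484 CPM at ZT23. With the distal score as a covariate, Tlr2 (adjusted p = 0.0215) and Ikbkg (0.0266) were called and Tlr1 (0.0569) was not. The part of the smooth muscle markers was not tested. Tlr1 had 67.5, 74.8, 90.0 and 91.1 CPM at ZT5, 43.5, 50.6, 51.4 and 62.6 CPM at ZT11, 57.9, 62.6, 72.0 and 82.4 CPM at ZT17, and 58.3, 66.0, 66.1 and 74.3 CPM at ZT23. It was lowest at ZT11, where Tlr2 was highest (adjusted p = 0.0345). The Tlr1 call was lost without vancomycin ZT5 replicate 1 or 3 or ZT11 replicate 1, 3 or 4. Ikbkg had 41.9, 42.8, 53.1 and 60.4 CPM at ZT5, 32.5, 36.1, 37.7 and 38.7 CPM at ZT11, 49.2, 53.6, 65.1 and 144 CPM at ZT17, and 36.6, 40.7, 46.9 and 50.4 CPM at ZT23. It was lowest at ZT11 and highest at ZT17 (adjusted p = 0.0206), and the call was lost without vancomycin ZT17 replicate 4 (adjusted p = 0.147). Bcl3 and Ripk2 came next with adjusted p of 0.0937 and 0.106. Rel (adjusted p = 0.611) and Pglyrp1 (adjusted p = 0.887) had the smallest p of their roles.

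After PBS in SPF colon, 1 of 38 members was called, Irak1, against 8.9% of all genes. Irak1 had 52.5, 65.8, 67.4 and 71.6 CPM at ZT5, 54.6, 56.2, 68.9 and 85.2 CPM at ZT11, 74.6, 82.1, 93.1 and 116 CPM at ZT17, and 62.1, 71.0, 75.1 and 77.5 CPM at ZT23. Its level was highest at ZT17 (adjusted p = 0.0480). The call held in only 6 of 32 fits without 1 library, those without PBS ZT5 replicate 1, ZT11 replicate 4 or ZT17 replicate 2 or without vancomycin ZT11 replicate 2, ZT17 replicate 4 or ZT23 replicate 3. Sigirr had 28.6, 31.7, 33.9 and 36.0 CPM at ZT5, 24, 24.2, 24.4 and 32.4 CPM at ZT11, 29, 34.8, 36.8 and 38.1 CPM at ZT17, and 32.6, 37.1, 39.8 and 42.1 CPM at ZT23. It was lowest at ZT11, where the distal colon markers after PBS had a median sum of 262 CPM, against 416 CPM at ZT5, 449.6 CPM at ZT17 and 541 CPM at ZT23. With the distal score as a covariate the adjusted p was 0.076 for Irak1, 0.219 for Sigirr and 0.724 for Tlr2. Without it, Sigirr did not pass the threshold either (adjusted p = 0.0528), but was called in 6 of the 32 fits without 1 library: PBS ZT11 replicate 2, PBS ZT17 replicate 1 and vancomycin ZT11 replicates 1 and 3 and ZT17 replicates 2 and 4. Tlr2 was called in 1 of them, without PBS ZT11 replicate 2, and in the fit with all libraries had an adjusted p of 0.093. Chuk (adjusted p = 0.118), Nfkb1 (0.294) and Pglyrp1 (0.324) had the smallest p of their roles. A call in one SPF arm and not in the other does not show that the arms differ, and no member was called in the test of the difference. In GF colon, time of day called 0 of 38 members after vancomycin and 0 of 38 after PBS, against 0.142% of all genes in each. The smallest adjusted p were 0.337 for Tlr4 after vancomycin and 0.214 for Tollip after PBS. Tlr4 after vancomycin had 10.9, 18.5, 19.1 and 26.9 CPM at ZT5, 19, 23.6, 25.1 and 25.4 CPM at ZT11, 10.7, 11.8, 15.1 and 18.6 CPM at ZT17, and 22.4, 23.6, 25.7 and 26.8 CPM at ZT23, lowest at ZT17.

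**Figure D3:**
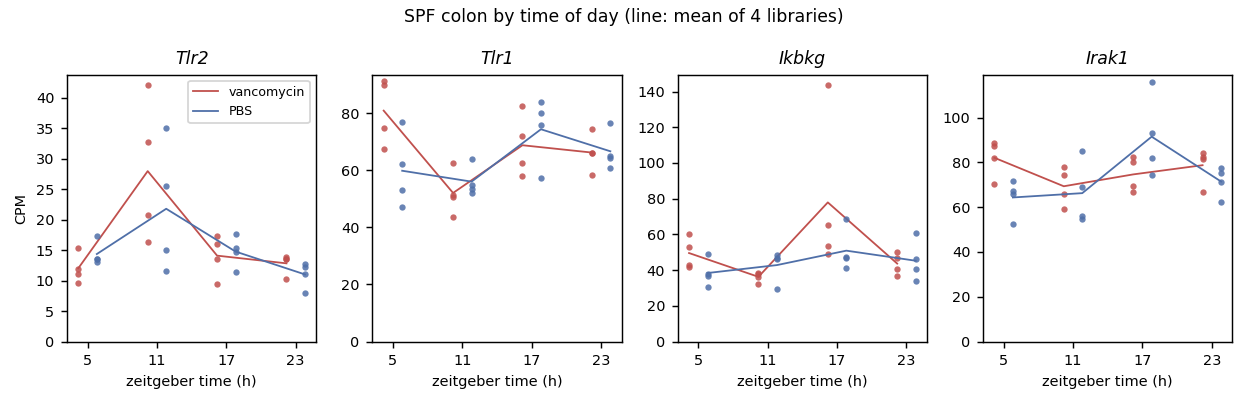
Level in CPM (y axis) at ZT5, ZT11, ZT17 and ZT23 (x axis) of the 4 members with a time-of-day call in SPF colon, after vancomycin and after PBS, with points for the 4 libraries of each group and lines through their means. Tlr2 after vancomycin reaches 42.1 CPM at ZT11 while Tlr1 has its lowest values there, and Ikbkg at ZT17 holds 1 library at 144 CPM.

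The levels of several members moved with the summed B cell markers of the libraries. Over the 32 SPF libraries, the level of each member was related to the summed B cell markers on the log2(CPM + 1) scale, with 100000 permutations for each of the 16938 genes tested and p adjusted over all of them. Pglyrp2 had a Pearson r of 0.938 and a Spearman rho of 0.963, and r was 0.935 without the 2 libraries farthest from the median. For Tlr9 r was 0.905 and rho 0.945 (0.915 without the 2 libraries), for Rel 0.854 and 0.904 (0.851), for Nfkbie 0.841 and 0.909 (0.827) and for Nfkb2 0.762 and 0.858 (0.744). The permutation p was 1e-05 for r in the first 4 genes and 2e-05 in Nfkb2, where 1e-05 is the smallest that these permutations can give, and the adjusted p was 0.00028 in the first 4 and 0.000493 in Nfkb2. For rho the permutation p was 1e-05 and the adjusted p 0.000239 in all 5. In all, 15 of the 38 had an adjusted p under 0.05 for r, against 15.2% of all genes, and 13 of these had a positive r, against 8.77% of all genes. The median r was 0.223 over the members and -0.0316 over all genes. Tollip had the most negative r, -0.616 (rho -0.568, permutation p = 0.00019, adjusted p = 0.00323). Pglyrp1 was not among the closely related members, and its call held with the B cell score as a covariate (0.31, adjusted p = 0.0484). All values of a library share its total and its scaling factor. The permutations ran over all 32 libraries and not within groups, so differences of the B cell sum between groups enter r and p. Sums of B cell, T cell and macrophage markers were 820, 458 and 882 CPM in PBS ZT23 replicate 4. They were 22.6, 20.3 and 211 CPM in vancomycin ZT11 replicate 3. Whether the relation is particular to B cells was not tested.

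**Figure D4:**
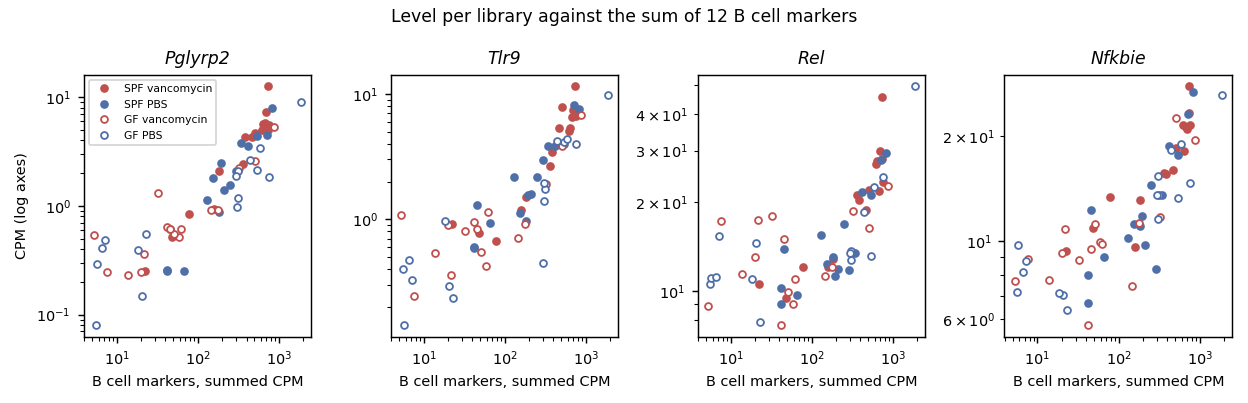
Level in CPM (y axis, log) of 4 members against the sum of 12 B cell markers in CPM (x axis, log) in the 64 libraries, filled for SPF and open for GF, in 1 colour for vancomycin and another for PBS. In SPF libraries Pglyrp2 follows the sum most closely (r of 0.938 on the log2 scale).

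Other genes of the pathway, which are no members, were described from lists picked by function. In SPF colon over all times, 0 of 66 tested genes of pathway partners were called (0.809% of all genes) and 18 had an unadjusted p under 0.05 (16.2% of all genes), 16 higher (7.57%) and 2 lower (8.58%) after vancomycin, with a median log2 fold change of 0.11, against -0.00 over all genes. Of 39 NF-kB target genes 0 were called and 10 had an unadjusted p under 0.05, all higher, with a median of 0.27. The summed T cell, B cell and macrophage markers also had higher medians after vancomycin in these libraries. No values with a marker score are given for these lists, so the part of these cells in them was not tested. The kinase gene Map3k8 had medians of 4.06 CPM after vancomycin and 2.17 CPM after PBS (0.62 ± 0.17, adjusted p = 0.0701), and the chemokine gene Cxcl10 had medians of 2.59 CPM after vancomycin and 0.799 CPM after PBS (1.66 ± 0.44, adjusted p = 0.0668). In GF colon over all times 0 of 67 pathway partners and 0 of 37 targets were called, against 0% of all genes. Of these lists 0 and 0 had an unadjusted p under 0.05, against 3.96% of all genes. For time of day, where 8.9% of all genes were called after PBS and 8.2% after vancomycin in SPF colon, the called genes were 4 of 66 partners (Irf7, Il1r1, Rnf11 and Nlrx1) and 5 of 39 targets (Junb, Bcl2l1, Tnfsf13b, Sod2 and Cfb) after PBS in SPF colon, and 2 of 66 partners (Irf7 and Il1r1) and 1 of 39 targets (Bcl2l1) after vancomycin, and only the 5 targets lay above the share of all genes. Bcl2l1, which encodes the survival protein Bcl-xL, had an adjusted p of 0.00575 after vancomycin and 0.00284 after PBS, and Junb, a subunit of the transcription factor AP-1, one of 0.000746 after PBS.

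The SPF and GF tables were scaled separately, so the levels of the 2 kinds of mice are set side by side with no test. Pglyrp2 had 0.252, 2.46 and 12.5 CPM in the 32 SPF libraries and 0.0807, 0.624 and 9.01 CPM in the 32 GF libraries (lowest, median and highest). Tlr9 had 0.590, 2.82 and 11.5 CPM in SPF and 0.145, 0.915 and 9.82 CPM in GF colon. These members had the closest relation to the B cell markers. Bcl3 had 24.4, 49.0 and 109 CPM in SPF and 18.3, 31.8 and 55.7 CPM in GF colon, Pglyrp1 had medians of 166 CPM in SPF and 125 CPM in GF colon, and Nfkbia of 99.2 CPM in SPF and 75.1 CPM in GF colon. Sigirr and Tlr4 lay the other way, with medians of 36.4 CPM in SPF and 48.0 CPM in GF colon for Sigirr and of 15.4 CPM in SPF and 19.6 CPM in GF colon for Tlr4. The ranges overlapped between housings for each of these genes.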

How the data were processed

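Whole colon RNA was poly(A)-selected from 1000 ng of total RNA and sequenced as single-end reads of 75 cycles, per the labels' protocols. Per the submitters' processing notes, the tools were Salmon, cutadapt 3.5 and Trim Galore 0.6.2, with build GRCm39. The authors deposited 1 table for SPF and 1 for GF libraries, whose values were taken to be estimated counts of genes. The names of the deposited tables call them normalized, but library totals differ as those of unscaled counts do. The annotation and the use of strand are not stated.

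Estimated counts were rounded, and a gene was tested where 4 or more libraries had 10 or more. The quasi-likelihood test of edgeR 4.0.16 (R 4.3.3, TMM factors) was run per table with a mean per group, two-sided, with Benjamini-Hochberg adjustment over all genes tested and a threshold of 0.05. The effect over all times is the mean of vancomycin minus PBS at the 4 times. The difference of effects used 1 fit of 64 libraries over 16604 genes, with only differences within a table. The SE was taken from the F statistic (fold change over root F) and is unreliable near 0. DESeq2 1.42.0, limma 3.58.1 and the other alternatives are given at the end. The fits were tested on simulated counts.

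The 38 members, the marker lists and the tests were chosen with earlier results of these data known. Library values are given for called members and for the member of each role with the smallest p. Values of some further members were picked outside that rule, such as Nfkbiz at GF ZT23 and Pglyrp2, Nfkb2 and Nfkbia in SPF colon over all times. For the interaction and time-of-day tests, values are shown for fewer members than that rule names. Alternatives without the 11 GF libraries low in Y-linked genes (score under 3 log2 CPM) were chosen after seeing the data. Promoters came from RefSeq tables of build GRCm38.p6, and no coordinate was carried between builds.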

Additional observations from a re-analysis of the deposited data

Results flagged for a closer look

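The 5 members called in any comparison (Pglyrp1, Tlr1, Tlr2, Ikbkg and Irak1) were screened in the 8 SPF groups for a library far from the other 3, which made 40 groups, of which chance alone marks about 1 in 20. A gap past Dixon's critical value was found 5 times. Ikbkg had 144 CPM in SPF vancomycin ZT17 replicate 4, against 49.2 to 65.1 CPM in the other 3 libraries, and without this library the time-of-day call is lost. Ikbkg had 29.3 CPM in SPF PBS ZT11 replicate 1, against 46.4 to 48.7 CPM. Irak1 had 66.9 CPM in SPF vancomycin ZT23 replicate 3, against 81.3 to 84.2 CPM. Tlr2 had 10.3 CPM in SPF vancomycin ZT23 replicate 4, against 13.5 to 13.9 CPM, and 17.4 CPM in SPF PBS ZT5 replicate 1, against 13.1 to 13.5 CPM.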

How the results depend on the processing

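Over all times in SPF colon, 1 member was called; DESeq2 called 5 and a replicate block called 2, Nfkbia (adjusted p = 0.0423) and Pglyrp1 (adjusted p = 0.0401). The median correlation of deviations was 0.021 for same-numbered SPF libraries, against -0.010 for differently numbered ones. In GF colon these medians were -0.053 and 0.0034. A correlation over 0.1 was found in 27 of 112 same-numbered SPF pairs and 31 of 112 GF pairs. That share was not taken for differently numbered pairs, so these values cannot settle whether replicate numbers pair libraries. Members at an unadjusted p under 0.05 over all times in SPF colon numbered 16 without a covariate. They numbered 8 with the T cell or the macrophage score and 11 with the B cell score. DESeq2 called 2 members at SPF ZT11, against 0. For time of day after PBS in SPF colon (1 called) the number was 0 with DESeq2 size factors in edgeR, with no low-count filter, with at least 10 in at least 16 libraries and with the distal colon score, 2 with the macrophage score, and 3 with DESeq2 or the B cell score. Of all genes, edgeR called 1507 in this comparison, DESeq2 called 2639 and edgeR with the distal colon score called 433. The unadjusted GF count of 1 was 0 in limma, 0 with the Y-linked score, 0 without the 11 libraries low in Y-linked genes and 2 with the B cell score. The unadjusted count for the difference of effects, 13, was 7 with the B cell, macrophage or Y-linked score and 5 with the T cell score. The causes of these changes were not tested.

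Leaving out 1 library at a time gave 0 to 7 members over all times in SPF colon (10 to 21 at an unadjusted p), 0 to 3 at SPF ZT11, 1 to 4 for time of day after vancomycin and 0 to 2 after PBS, 0 to 4 at an unadjusted p in GF colon and 10 to 17 for the difference. The other member counts stayed at 0. Of all genes, these fits called 47 to 518 over all times in SPF colon and 0 to 109 at SPF ZT11. For time of day in SPF colon they called 798 to 1717 genes after vancomycin and 671 to 1942 after PBS. The sign of Pglyrp2 changed with marker scores: at SPF ZT5 to -0.16 (B cell), -0.25 (T cell) and -0.10 (macrophage), in GF colon over all times to 0.042 (B cell) and 0.023 (T cell), at GF ZT5 to -0.034 (T cell), at GF ZT17 to -0.035 (B cell) and -0.080 (macrophage), and at GF ZT23 to 0.079 (B cell) and 0.066 (T cell). It was -0.51 at GF ZT17 without vancomycin replicate 1. Tlr7 at SPF ZT11 was -0.076 with the T cell score and -0.41 without vancomycin replicate 2.

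Over all genes, the SPF count over all times was 137 in edgeR, 493 in DESeq2, 80 with no low-count filter, 85 with the B cell score, 40 with the T cell score and 47 to 518 without 1 library. DESeq2 and edgeR called 240 and 14 genes at SPF ZT5, 102 and 0 at ZT11, 147 and 54 at ZT17, 42 and 0 at ZT23, 205 and 61 for the SPF interaction, 2254 and 1389 for time of day after vancomycin, 2639 and 1507 after PBS, 5 and 0 in GF colon over all times, 9 and 0, 8 and 0, 13 and 0 and 55 and 0 at GF ZT5, ZT11, ZT17 and ZT23, 9 and 0 for the GF interaction, 179 and 24 and 403 and 24 for time of day in GF colon after vancomycin and after PBS, and 16 and 0 for the difference of effects. In edgeR with a marker score, the count was 2 to 4 at SPF ZT5 (B cell, T cell or macrophage; 8 with that time's libraries alone), 82 at SPF ZT17 (B cell), 433 for time of day after PBS (distal colon), 38 to 53 for time of day in GF colon after vancomycin and 7 for the difference (distal colon). Counts of 0 became at most 8 under the other alternatives with all libraries of a comparison, limma (7 at SPF ZT11) included. Limits are the 4 libraries per group, the unknown source of each library, the unstated normalization and, for Tlr7, Tlr9 and Pglyrp2, levels of a few counts per library in places.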
